A study of Rattus norvegicus with 35 samples.

Results

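The oligodendrocyte precursors and newly forming oligodendrocytes of the rat hippocampus were followed here through 9 genes: Pdgfra, Cspg4, Olig1, Olig2, Sox10, Gpr17, Bcas1, Enpp6 and Myrf. They were chosen by name, as markers of the early steps of the lineage, with earlier results of these data known. Their values were read from the table of counts that the authors had not normalized. The table lists 15059 genes, and all 9 were among the 14411 that passed the filter on low counts and were tested. Levels are given in CPM, counts scaled to the same library size with totals adjusted by the TMM method.

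Female Sprague Dawley rats had surgery at 6 months of age, and after a washout of 2 weeks they were injected once daily into the peritoneum for 7 days before the hippocampus was taken. The sham group kept its ovaries. The other 6 groups were ovariectomized and received vehicle, estradiol (0.16 mg per kg), the selective estrogen receptor modulators tamoxifen (3.23 mg per kg) or raloxifene (9.68 mg per kg), or the aromatase inhibitors exemestane (0.16 mg per kg) or anastrozole (4.03 mg per kg). These doses follow the labels, and a possible exchange of the exemestane and anastrozole doses could not be checked. Each of the 7 groups had 5 libraries of poly(A) RNA, 35 in all. The labels do not state that each library came from a separate rat, so the p-values measure the spread between these libraries.

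Oligodendrocyte precursors are dividing cells spread through the adult brain that divide in response to platelet-derived growth factor and can leave the cycle to become myelinating cells. A cell that commits to this step passes through a short premyelinating state before the genes of mature myelin are switched on. In adult hippocampus both states are held by few cells, and whole-tissue RNA carries them mixed with neurons, astrocytes and vessels. In such bulk RNA, fewer cells of a type and less RNA per cell cannot be told apart.

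Against vehicle, Enpp6 had the largest fold of the 9 genes, with all exemestane and all estradiol libraries below the lowest vehicle library, and the exemestane difference passed the test. Sox10 fell in raloxifene and exemestane, and Myrf in raloxifene. Against sham, Olig1, Olig2, Sox10, Cspg4 and Myrf fell in raloxifene and exemestane. Apart from Enpp6, the genes that fell were also lower in a set of libraries that stood apart across the transcriptome. With a term for that set in the model, none of the 9 genes passed in any test, Enpp6 included. The Enpp6 call in exemestane against vehicle held in 2 of 10 fits that each left out 1 library. Pdgfra, Bcas1 and Gpr17 passed the test in none of the comparisons with vehicle or sham.

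RefSeq promoter windows, the 250 bases before the transcription start in build GRCr8, were found for 5 of the 9 genes: Enpp6, Pdgfra, Cspg4, Olig2 and Gpr17. The build behind the authors' counts is not given in the sources used here, and these positions were used for nothing but the sequence. A pair of windows is shown because one belongs to the gene with the largest fold change and the other to a transcription factor that moved with its partners. The Enpp6 window lies at chr16:52026729-52026978 on the minus strand, and the Olig2 window at chr11:43961335-43961584 on the plus strand. Both are written 5′ to 3′ on the strand of the gene. Capitals mark the E-box CANNTG, the letters read by basic helix-loop-helix factors such as Olig1 and Olig2, and the Sox core ACAAT, searched on both strands.
Enpp6: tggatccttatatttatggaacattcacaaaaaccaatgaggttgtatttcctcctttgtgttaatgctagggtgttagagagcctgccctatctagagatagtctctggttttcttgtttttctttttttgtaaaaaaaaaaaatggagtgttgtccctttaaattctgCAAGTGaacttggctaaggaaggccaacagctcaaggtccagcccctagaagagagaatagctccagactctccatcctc
Olig2: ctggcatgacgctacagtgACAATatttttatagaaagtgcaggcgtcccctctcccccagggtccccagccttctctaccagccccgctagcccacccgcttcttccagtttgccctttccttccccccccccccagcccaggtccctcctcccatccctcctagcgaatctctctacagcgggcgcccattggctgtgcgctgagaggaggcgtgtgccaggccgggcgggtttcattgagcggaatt

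The Enpp6 window holds 1 E-box and 0 Sox cores, and the Olig2 window holds 0 E-boxes and 1 Sox core. Pdgfra has 1 E-box, and neither motif was found in the Cspg4 and Gpr17 windows. Among 33469 rat promoter windows of this length, 65.5% hold an E-box and 30.0% a Sox core. The estrogen half-site AGGTCA, present in 14.1% of windows, and the full palindromic estrogen response element, present in 0.0239%, were found in 0 of the 5 windows. The E-box and Sox core matches do not overlap. These are matches of letters in 1 window per gene and say nothing of binding.

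The libraries fell into 2 classes that were not in the labels and that moved with most of these genes. A second deposited table holds the authors' normalized values, and its ratio to the counts separates 20 libraries, called class A here, from 15 called class B. The first component of that ratio held 72.3% of its variance and the second 1.69%. All 5 raloxifene libraries were of class B, as were 4 exemestane (all but replicate 5), 3 tamoxifen, 2 anastrozole, 1 vehicle (replicate 4), 0 sham and 0 estradiol libraries. Rn7sl1, a small cytoplasmic RNA, took 4.47% to 6.49% of counts in libraries of class A but 2.90% to 3.84% in those of class B. With group in the model, 7473 of 14411 genes (51.9%) differed between classes by the edgeR test. What the classes stand for is not given in the sources used here, and for raloxifene class and treatment cannot be told apart within the group. Totals ran from 5.58 M to 12.09 M counts (M for mega) with a median of 8.01 M.

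Genes of the precursor and of the later stage were found on both sides of a split by class. With group in the edgeR model, 6 of 9 were lower in class B and 0 were higher, where 26.3% of all genes were lower and 25.5% higher. Olig1 and Gpr17 each had a log2 difference of -0.48, with standard errors of 0.06 and 0.11 (adjusted p = 6.53e-08 and 2.16e-04). Cspg4 was lower by -0.39 ± 0.06 (SE), Sox10 by -0.38 ± 0.06, Myrf by -0.37 ± 0.07 and Olig2 by -0.33 ± 0.09, with edgeR adjusted p from 4.19e-07 to 0.00397. The other 3 genes showed no such difference: the log2 values were 0.06 ± 0.08 for Pdgfra, 0.00 ± 0.09 for Bcas1 and -0.02 ± 0.25 for Enpp6 (edgeR adjusted p = 0.532, 0.997 and 0.953). The standard error of Enpp6 was the widest of the 9, and its libraries held 10 to 94 counts.

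**Figure D1:**
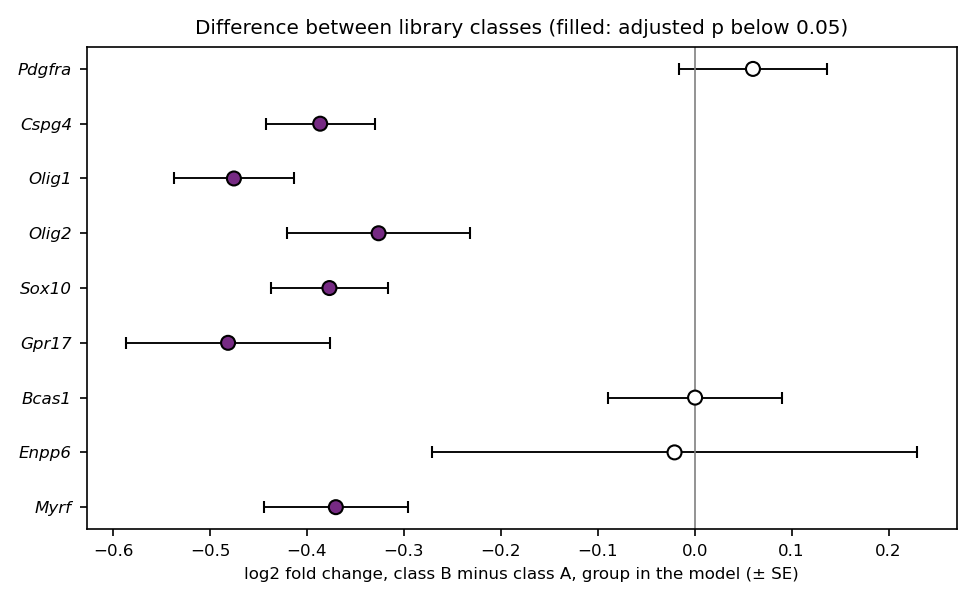
Log2 difference between class B and class A libraries for each of the 9 genes, with group in the edgeR model (points, estimates; bars, standard error; filled points, adjusted p below 0.05). The 6 filled points lie between -0.48 and -0.33, while Pdgfra, Bcas1 and Enpp6 lie within 0.06 of zero.

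Pdgfra encodes the receptor through which platelet-derived growth factor drives precursors to divide, and it had the lowest coefficient of variation of the 9 over the 35 libraries, 11.5%. Group means ran from 87.2 ± 9.35 CPM (SD, n = 5) in estradiol to 102.5 ± 12.03 in raloxifene. Vehicle libraries held 99.8, 89.5, 91.8, 110.5 and 105 CPM, and estradiol libraries 87.2, 100.004, 91.9, 80.9 and 76.1. The groups overlapped, with 3 of the 5 estradiol libraries below the lowest of vehicle. The log2 fold change of estradiol against vehicle was -0.19 ± 0.10 (edgeR adjusted p = 0.556), and the folds of the other 5 groups against vehicle lay between -0.08 and 0.04. Pdgfra is also made by fibroblasts of the meninges and vessels, and the genes most like it in this tissue, given below, include genes of that kind.

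Cspg4, the NG2 proteoglycan on the surface of precursors and pericytes, ran from 46.5 ± 8.02 CPM in exemestane to 62.0 ± 2.69 in estradiol. Sham libraries held 62.8, 60.9, 56.0, 59.7 and 68.6 CPM. Raloxifene libraries held 44.6, 53.7, 49.2, 48.1 and 42.1 CPM, all below the lowest of sham. Cspg4 was called lower in raloxifene than in sham, by -0.38 ± 0.11 (edgeR adjusted p = 0.00939), and lower in exemestane than in sham, by -0.41 ± 0.11 (adjusted p = 0.0108). Within the class A libraries it stayed between 48.9 and 68.6 CPM and within class B between 39.7 and 53.7, and with class in the model the raloxifene difference was 0.01 ± 0.09.

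Olig1 and Olig2 are the paired helix-loop-helix factors that specify the lineage, and Olig1 followed library class without overlap. Class A libraries held 103 to 149 CPM of Olig1 and class B libraries 76.8 to 99.5. In exemestane the 4 class B libraries held 79.9, 83.1, 80.9 and 76.8 CPM, and the class A library, replicate 5, held 134.3. Vehicle showed the same split, with 115.1, 103, 115.4 and 131.4 CPM in class A and 91.7 in the class B library, replicate 4. The Olig1 difference from sham was -0.50 ± 0.13 in raloxifene and -0.45 ± 0.13 in exemestane as designed (edgeR adjusted p = 0.00482 and 0.0150). These became -0.03 ± 0.10 and -0.10 ± 0.09 with class in the model.

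Olig2 ranged from 16.5 to 41.2 CPM over the libraries, and its highest group was sham. Sham libraries held 41.2, 33.3, 38.6, 27.2 and 30.3 CPM, vehicle libraries 30.2, 26, 27.7, 27.7 and 30.7. Tamoxifen libraries held 32.6, 24.1, 25.3, 16.5 and 23.4 CPM, overlapping sham through replicate 1. The log2 difference from sham was -0.48 ± 0.14 in tamoxifen, -0.51 ± 0.14 in raloxifene and -0.49 ± 0.14 in exemestane (edgeR adjusted p = 0.0439, 0.00573 and 0.0129). Adding class gave estimates of -0.30 ± 0.13, -0.19 ± 0.15 and -0.24 ± 0.14, none past the threshold (edgeR adjusted p = 0.422, 0.819 and 0.631).

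Sox10, a factor needed through the whole lineage, was the one of the 9 genes called against vehicle in both raloxifene and exemestane. Vehicle libraries held 63.2, 62.7, 59.9, 60.0 and 66.9 CPM, a narrow group of 62.5 ± 2.87 (SD, n = 5). Raloxifene libraries held 45.5, 48.1, 41.6, 44.0 and 45.9 CPM, all below vehicle. Exemestane libraries held 37.7, 36.9, 46.0 and 41.8 CPM in class B and 65.1 in class A, the last within the vehicle range. Sox10 fell by 0.47 ± 0.12 on the log2 scale in raloxifene (edgeR adjusted p = 0.0115) and by 0.46 ± 0.12 in exemestane (adjusted p = 0.0394). The single class B library of vehicle held 60.0 CPM, at the top of the class B range of 36.9 to 60.0. Adding class gave differences of -0.17 ± 0.09 and -0.25 ± 0.08 (edgeR adjusted p = 0.942 and 0.500). In class A libraries alone, with 1 of exemestane, the exemestane value was 0.05 ± 0.12. In class B libraries alone, with 1 of vehicle, the Sox10 difference was -0.57 in exemestane and -0.43 in raloxifene. That vehicle library, replicate 4, lay nearest to class A of the class B libraries, with a score of -0.105 on the first component. The other class B libraries ran from -0.139 to -0.238, and whether class remains in these values was not tested. The tamoxifen and anastrozole values against that vehicle library were -0.46 and -0.42. The exemestane call as designed also held in only 2 of 10 fits that each left out 1 library, without exemestane replicate 5 or vehicle replicate 4 (edgeR adjusted p = 0.00114 to 0.125).

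Gpr17, a receptor that marks cells between the precursor and the premyelinating state, was sparse, at 48 to 182 counts a library. Group means ran from 10.8 ± 3.40 CPM in tamoxifen to 14.7 ± 0.999 in anastrozole, and vehicle held 14.6 ± 2.30. The folds against vehicle were -0.42 ± 0.17 in tamoxifen, -0.42 ± 0.17 in raloxifene and -0.40 ± 0.17 in exemestane (edgeR adjusted p = 0.240, 0.0703 and 0.113). Every group overlapped vehicle. In exemestane the class B libraries held 8.37 to 10.6 CPM and the class A library 16.6.

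**Figure D2:**
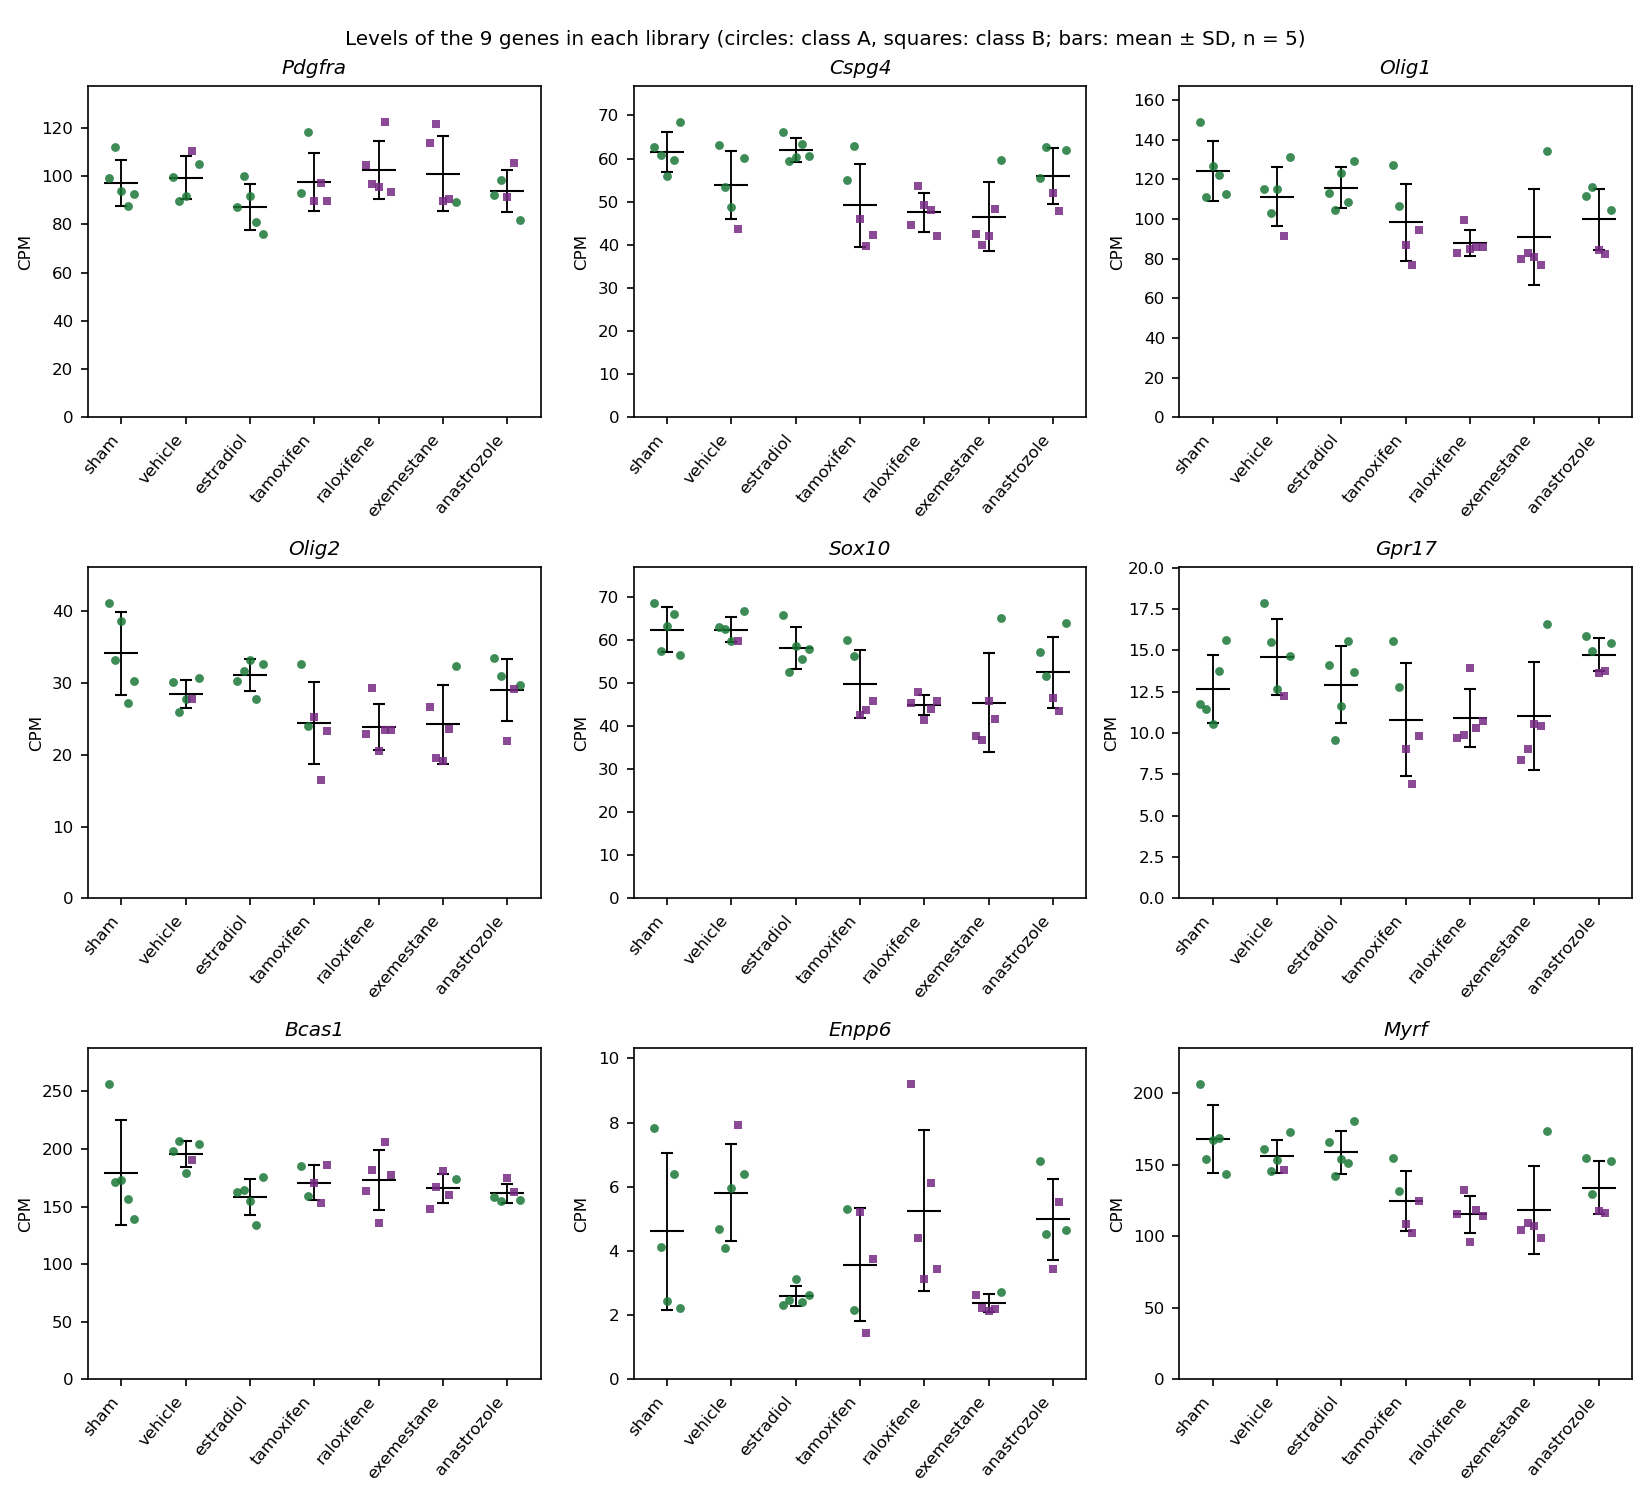
CPM of the 9 genes in each of the 35 libraries by group (circles, class A; squares, class B; bars, mean and SD, n = 5; every axis starts at 0). In Olig1, Cspg4, Sox10, Gpr17 and Myrf the squares lie at or near the bottom of the groups that hold both classes. In Pdgfra, Bcas1 and Enpp6 they do not do so throughout, though the 4 Enpp6 squares in exemestane lie below the circle. In Olig2 squares and circles mix in tamoxifen and vehicle.

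Bcas1 marks premyelinating and early myelinating oligodendrocytes, and vehicle was its highest group on average. Vehicle libraries held 198, 207, 179, 190 and 205 CPM. Estradiol libraries held 162, 165, 155, 134 and 175 CPM, and anastrozole libraries 158, 155, 175, 163 and 156, so both groups lay wholly below vehicle. The log2 differences from vehicle were -0.31 ± 0.11 and -0.28 ± 0.11, and neither passed the edgeR test over all genes (adjusted p = 0.384 and 0.9999). All 6 folds against vehicle were below zero, from -0.31 to -0.13, but all share the vehicle libraries. Sham held 171, 173, 156 and 139 CPM in 4 libraries and 256.785 in replicate 1, a library that also held the highest summed level of the mature myelin list, 9146 CPM, and of the thalamus and habenula list, 354 CPM against 120 to 181 in all other libraries. The part of tissue sampling in that value was not tested.

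Enpp6, a choline phosphodiesterase made by newly forming oligodendrocytes, had the largest fold changes of the 9 and was the scarcest, with a median of 32 counts. Vehicle libraries held 4.68, 4.11, 5.95, 7.93 and 6.40 CPM. Exemestane libraries held 2.62, 2.23, 2.12, 2.20 and 2.71 CPM and estradiol libraries 2.32, 2.49, 3.11, 2.41 and 2.63. All 10 of these libraries lay below the lowest of vehicle, and the 2 groups had the smallest spread of all 7, with SDs of 0.270 and 0.311 CPM. In counts, exemestane libraries held 15 to 22, estradiol 14 to 20 and vehicle 34 to 59. At so few counts, counting noise alone is at least as wide as the spread seen in exemestane and estradiol. The small SDs are therefore not read as a trait of these groups.

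The remaining Enpp6 groups were wide. Sham libraries held 7.85, 4.12, 2.45, 6.39 and 2.24 CPM, so that 2 of them lay within the range of estradiol and exemestane. Tamoxifen libraries held 5.31, 2.16, 5.20, 1.44 and 3.76 CPM. Raloxifene libraries held 9.22, 4.39, 3.13, 6.11 and 3.43 CPM and anastrozole libraries 6.80, 4.52, 3.44, 5.54 and 4.64, both overlapping vehicle. From the lowest mean the order was exemestane, estradiol, tamoxifen, sham, anastrozole, raloxifene and vehicle, and no neighbouring pair differed by more than the larger SD of the pair.

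Enpp6 fell by 1.28 ± 0.33 on the log2 scale in exemestane against vehicle (edgeR adjusted p = 0.0394) and by 0.96 ± 0.33 against sham (adjusted p = 0.0312). In estradiol the log2 difference from vehicle was -1.16 ± 0.33 and did not pass the test over all genes (edgeR adjusted p = 0.288). Both comparisons use the same vehicle libraries, and their difference from each other was not tested. The p-value of the exemestane fold before adjustment was 4.51e-04 and that of estradiol 0.00142. In exemestane the adjusted value is that of a comparison with 938 calls, and in estradiol that of one with 1 call. Fitted on the 2 groups alone, the estradiol fold passed (-1.16 ± 0.21, edgeR adjusted p = 0.0298) and the exemestane fold did not (-1.28 ± 0.21, adjusted p = 0.0555). Those fits take the spread from the 2 groups alone, and in exemestane and estradiol it was no wider than counting noise.

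The Enpp6 folds kept their size when class was added to the model, but not within each class alone, and the exemestane call did not hold. With class as a term the exemestane difference from vehicle was -1.27 ± 0.36 and that of estradiol -1.17 ± 0.35 (edgeR adjusted p = 0.468 and 0.163). In class A libraries alone, where exemestane has 1 library against 4 of vehicle, it was -0.96 ± 0.58, and in class B alone, with 4 against 1, it was -1.80 ± 0.54. Estradiol has class A libraries only, and against the 4 class A libraries of vehicle its difference was -1.02 ± 0.34. Leaving out each library in turn kept the exemestane fold between -1.38 and -1.13 and the adjusted p between 0.00917 and 0.125. The call held in 2 of those 10 fits, without exemestane replicate 5 or without vehicle replicate 4, the libraries that differ in class from the rest of their group. Against sham the call held in 4 of 10 fits and was lost without any of exemestane replicates 1 to 4 or without sham replicate 1 or 4, with folds from -1.14 to -0.66. Summed levels of the 15 mature myelin genes had their highest group median in vehicle, at 7276 CPM, with a range of 6601 to 8163. Estradiol held 5706 to 6082 and exemestane 5224 to 7100. The ranges were 5161 to 6988 in tamoxifen, 5582 to 6623 in raloxifene, 5484 to 6385 in anastrozole and 5258 to 9146 in sham. The part of oligodendrocyte content in the Enpp6 values was not tested.

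Myrf, the membrane-bound factor that switches on myelin genes in differentiating cells, was called lower in raloxifene than in vehicle. Vehicle libraries held 161, 145, 153, 146 and 173 CPM, and raloxifene libraries 116, 132, 96.0, 118 and 114, with no overlap. Exemestane libraries held 104, 109, 107 and 98.8 CPM in class B and 173.185 in class A. Myrf fell by 0.43 ± 0.13 on the log2 scale in raloxifene (edgeR adjusted p = 0.0172), and the exemestane difference of -0.39 ± 0.13 missed the threshold (adjusted p = 0.0516). Against sham it fell by 0.43 ± 0.13 in tamoxifen, by 0.54 ± 0.13 in raloxifene and by 0.50 ± 0.13 in exemestane (edgeR adjusted p = 0.0432, 0.00216 and 0.00696). All 5 of these differences lay, once class was added, between -0.23 and -0.14 and none passed. In class B libraries alone, the Myrf difference from the single vehicle library of that class was -0.36 in raloxifene and -0.49 in exemestane. These were about as large as designed. That vehicle library, replicate 4, lay nearest to class A of the class B libraries, and whether class remains in these values was not tested.

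Counted over the 9 genes, every call in a comparison with vehicle or sham was of a lower level. In raloxifene against vehicle 2 of 9 were called, both lower (Sox10 and Myrf), where 24.8% of all tested genes were called and 11.4% were called lower. In exemestane against vehicle 2 of 9 were called, both lower (Enpp6 and Sox10), where 6.51% of all genes were called and 2.45% lower. Against vehicle, edgeR called 0 of 9 in sham, tamoxifen and anastrozole, where 0% of all genes were called, and 0 of 9 in estradiol, where 0.00694% were. In those 4 comparisons 981, 2365, 414 and 1316 of all genes had an unadjusted p below 0.05, and DESeq2 called 12, 83, 1 and 16. The comparisons share the vehicle libraries.

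The comparisons with sham, which share the sham libraries, gave more calls and a higher background. Exemestane had 6 of 9 called lower (Cspg4, Enpp6, Myrf, Olig1, Olig2 and Sox10), where 27.6% of all genes were called and 12.8% lower. Raloxifene had 5 of 9 called lower (Cspg4, Myrf, Olig1, Olig2 and Sox10), with 37.3% of all genes called and 18.2% lower. Tamoxifen had 2 of 9 called lower (Myrf and Olig2), with 5.02% called and 1.78% lower. That background moved with single libraries, from 12 genes called without tamoxifen replicate 5 to 2832 without tamoxifen replicate 2, beside 724 as designed. EdgeR called 0 of 9 in estradiol and anastrozole against sham, where 0% of genes were called, 859 and 1114 genes had an unadjusted p below 0.05 and DESeq2 called 2 and 10. The tamoxifen calls rested on single libraries: Myrf was called in 3 of 10 fits that each left out 1 library (without sham replicate 5 or tamoxifen replicate 1 or 2), as was Olig2 (without sham replicate 4 or tamoxifen replicate 1 or 2). The Olig1 call in exemestane was lost without exemestane replicate 4 (edgeR adjusted p = 0.0518). The test of any difference among the 7 groups called the same 6 genes as exemestane against sham, where 37% of all genes were called.

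When class was added to the edgeR model, 0 of the 9 genes passed in each of the 12 tests. Of all genes, 0.298% then passed in estradiol against vehicle, 0.0416% in sham against vehicle, 0.00694% in raloxifene against vehicle and in tamoxifen against sham, 0.0139% in exemestane against sham, 0.0278% among the 7 groups and 0% in the rest. Over these tests 764 to 2027 genes had an unadjusted p below 0.05, and DESeq2 was not run with class. The median log2 difference of the 9 in exemestane against vehicle was -0.29 as designed and -0.14 with class, beside -0.01 and 0.00 over all tested genes. In raloxifene against sham it was -0.38 as designed and -0.03 with class, beside -0.02 and 0.00. In that fit the class difference is estimated from the 4 groups that hold libraries of both classes, and a call lost in it does not show that a group did not differ.

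**Figure D3:**
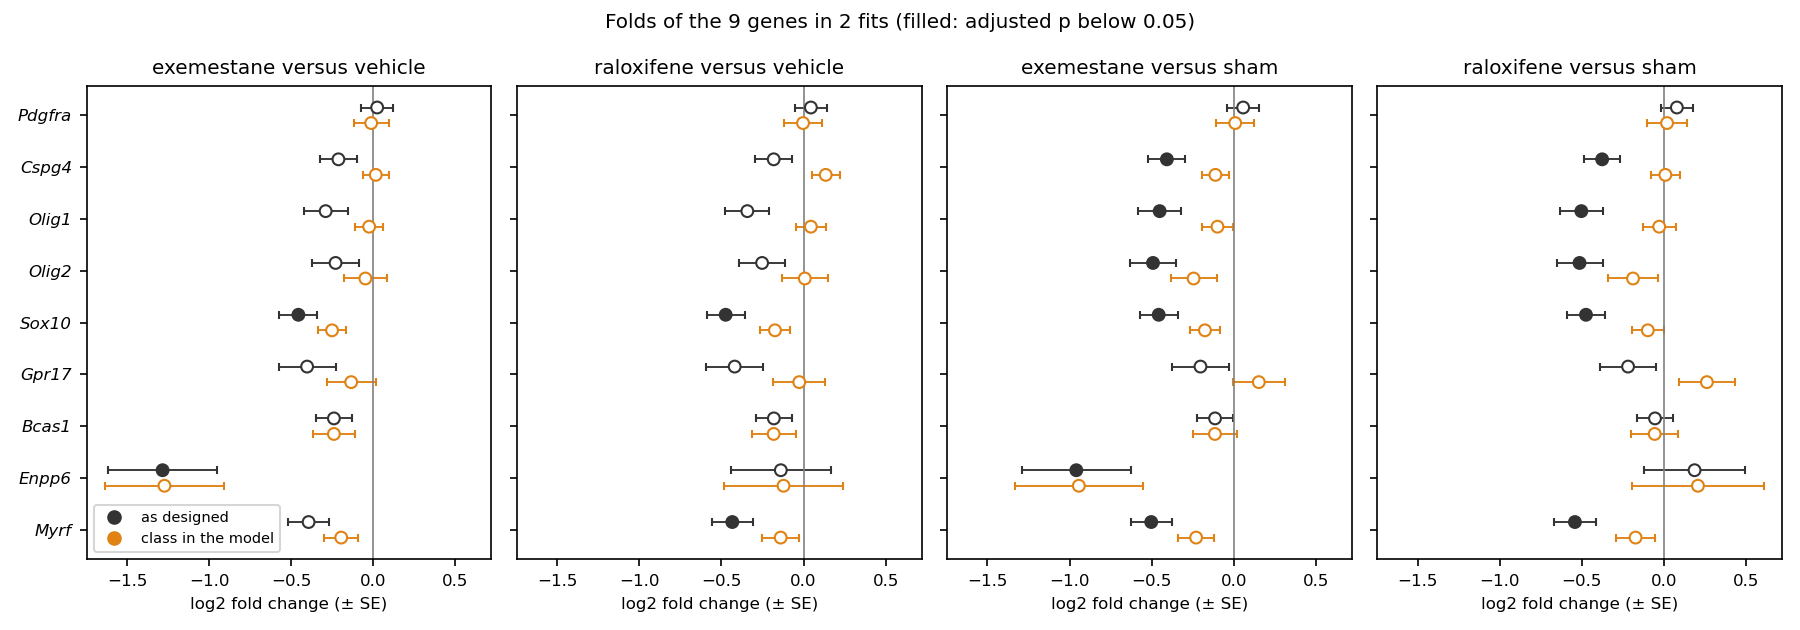
Log2 fold changes of the 9 genes with standard errors in 4 comparisons, as designed (dark) and with library class in the model (orange); filled points have an adjusted p below 0.05. The Enpp6 fold in exemestane stays near -1.28 in both fits, whereas the filled points of Cspg4, Olig1, Olig2, Sox10 and Myrf move toward zero when class is added.

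Other genes of the same lineage were counted in lists that leave out the 9. Of 11 other precursor genes, 1 was called in exemestane against vehicle, where 6.51% of all genes were, and it was Susd5, at 1.78 against 3.48 CPM (log2 difference -0.96 ± 0.24, edgeR adjusted p = 0.0394). The same gene was the 1 call in raloxifene, where 24.8% of all genes were called, at -0.62 ± 0.23 (edgeR adjusted p = 0.0479). The median of the 11 in exemestane was -0.22, beside -0.01 for all genes, and -0.06 with class. Against sham the calls went both ways: Matn4, a matrix protein, fell by 1.25 ± 0.25 in exemestane, and Ptprz1, a receptor phosphatase of precursors and astrocytes, was higher by 0.25 ± 0.07 (edgeR adjusted p = 0.00274 and 0.0133).

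Of 8 other genes of newly forming cells, 0 were called by edgeR in exemestane and in estradiol against vehicle, and their medians were -0.09 and -0.04. Over all genes 6.51% and 0.00694% were called there. Raloxifene had 1 call, Sirt2, a deacetylase enriched in oligodendrocytes, at -0.21 ± 0.07 (edgeR adjusted p = 0.0332). In that comparison 24.8% of all genes were called and 11.4% lower. The summed level of the 8 was 512 to 597 CPM in exemestane, 526 to 554 in estradiol and 528 to 577 in vehicle.

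Among 14 other lineage regulators, raloxifene against vehicle gave 4 calls, all lower: Zfp536, Nkx6-2, Sox8 and Hes5. Over all genes 24.8% were called there and 11.4% lower. The count of calls lay near the share called in either direction. As all 4 were lower, the like share is the 11.4%, and the difference from it was not tested. Nkx6-2, a homeodomain factor of the lineage, was at -0.60 ± 0.17 (edgeR adjusted p = 0.0169). Sox8, which acts with Sox10, had a log2 difference of -0.36 ± 0.11 in raloxifene (edgeR adjusted p = 0.0203) and -0.38 ± 0.11 in exemestane (adjusted p = 0.0451). It was the 1 regulator called in exemestane, where 6.51% of all genes were called. The factor Zeb2 was higher than in sham by 0.28 ± 0.07 in tamoxifen, 0.31 ± 0.07 in raloxifene and 0.31 ± 0.07 in exemestane (edgeR adjusted p = 0.0280, 0.00184 and 0.00431). None of these calls held with class in the model. In class B 6 of the 14 were lower and 1 higher than in class A, beside 26.3% and 25.5% of all genes.

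Of 18 genes for growth and guidance signals, 5 were called lower and 1 higher in raloxifene against vehicle, beside 11.4% of all genes lower and 24.8% called either way. Pdgfa, the ligand of the Pdgfra receptor, was at 17.6 against 22.5 CPM (-0.36 ± 0.12, edgeR adjusted p = 0.0290), and the neuregulin receptor Erbb3 at 40.3 against 54.3 CPM (-0.43 ± 0.10, adjusted p = 0.0111). The differentiation inhibitor Notch1 was lower by -0.41 ± 0.09 (adjusted p = 0.0111). In exemestane the 1 call was Fgfr1, at -0.33 ± 0.10 (edgeR adjusted p = 0.0494), where 6.51% of all genes were called. The edgeR fit with class called 0 of the 18 in each comparison. In class B 10 of the 18 were lower and 0 higher, beside 26.3% and 25.5% of all genes.

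The 15 genes of mature myelin are the step that follows. In exemestane against vehicle 5 were called, all lower, where 6.51% of all genes were called and 2.45% lower. Among them were Mbp, the main cytoplasmic myelin protein, at 2561 against 3621 CPM (-0.50 ± 0.11, edgeR adjusted p = 0.0394), Cnp at -0.41 ± 0.10 and Mag at -0.53 ± 0.14. In raloxifene 6 were called, all lower, where 24.8% of all genes were called and 11.4% lower. Hapln2, a link protein of the nodes of myelinated axons, was at -0.75 ± 0.19 in raloxifene (edgeR adjusted p = 0.0128). With class in the model all 15 folds against vehicle were below zero in estradiol, exemestane and anastrozole, with medians of -0.28, -0.26 and -0.27. These comparisons share the vehicle libraries, and with class the 1 call among the myelin genes was Cnp in estradiol (-0.43 ± 0.10, edgeR adjusted p = 0.0425). By class, 6 of the 15 were higher in class B and 4 lower, beside 25.5% and 26.3% of all genes. The median of the 15 was 0.05, against a median of -0.37 for the 9 genes.

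**Figure D4:**
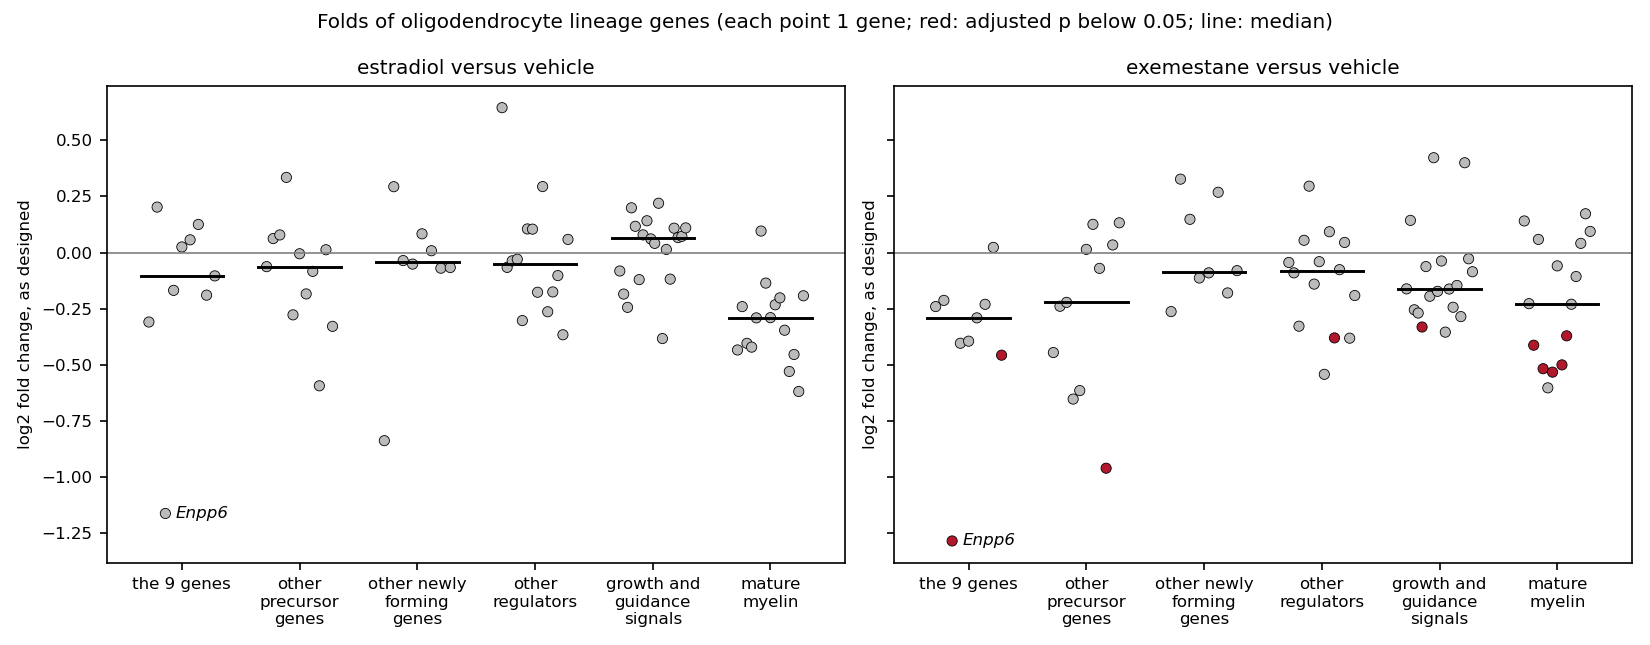
Log2 fold changes of oligodendrocyte lineage genes in estradiol and exemestane against vehicle, as designed, by list (each point 1 gene; red, adjusted p below 0.05; line, median of the list). Enpp6 has the lowest value of all lists in both panels, at -1.16 and -1.28, and the medians of the other precursor and newly forming lists lie between -0.22 and -0.04.

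Markers of dividing cells were near the limit of detection. The 7 tested genes of the cycle summed to 11.8 to 20.5 CPM a library. In exemestane against sham 1 of the 7 was called, Top2a, a topoisomerase of dividing cells, at 1.502 against 0.587 CPM (log2 difference 1.31 ± 0.43, edgeR adjusted p = 0.0238). Over all genes 27.6% were called in that comparison. Against vehicle edgeR called 0 of the 7 in each of the 6 comparisons, where 0% to 24.8% of all genes were called.

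Markers of the cells that share Pdgfra and Cspg4 were measured beside them. The 8 fibroblast genes summed to 51.1 to 211 CPM over the libraries. Of these, Dcn was called higher against vehicle in exemestane (0.83 ± 0.19) and raloxifene (0.75 ± 0.19), with edgeR adjusted p = 0.0394 and 0.0124. Over all genes 6.51% and 24.8% were called there, and Pdgfra was called in neither. The 11 mural cell genes summed to 100 to 183 CPM, and 1 of them, the receptor Notch3, was called lower than sham in tamoxifen (-0.69 ± 0.17), raloxifene (-0.48 ± 0.16) and exemestane (-0.49 ± 0.16; edgeR adjusted p = 0.0256, 0.0207 and 0.0262). Over all genes 5.02%, 37.3% and 27.6% were called in those comparisons, and 1.78%, 18.2% and 12.8% were called lower. Raloxifene and exemestane are the groups in which Cspg4 was called against sham. Against vehicle the 1 mural call was Tagln, lower in raloxifene by -0.49 ± 0.16 (edgeR adjusted p = 0.0273). Over all genes 24.8% were called there and 11.4% lower. With class in the model Notch3 was at 0.05 in raloxifene and -0.08 in exemestane against sham. In class B 3 of the 11 mural genes were lower and 0 higher, beside 26.3% and 25.5% of all genes. Choroid plexus genes, which mark tissue outside the hippocampus, summed to 2.87 to 3337 CPM and varied within every group.

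Markers of neurons, astrocytes, microglia and endothelium also differed in the comparisons that called the 9 genes. Of 7 neuronal genes, 4 were called higher in raloxifene against vehicle (Stmn2 at 0.17, Syt1 at 0.29, Gad2 at 0.40 and Gad1 at 0.23) and 1 in exemestane, Stmn2 at 0.18 (edgeR adjusted p from 0.0169 to 0.0442), where 24.8% and 6.51% of all genes were called. Their summed level was 3482 to 3849 CPM in raloxifene, 3515 to 3866 in exemestane and 3353 to 3485 in vehicle. Of 8 microglial genes, 2 were called lower in exemestane against vehicle, Csf1r at -0.32 and Tmem119 at -0.41 (edgeR adjusted p = 0.0403 and 0.0465), and 0 in raloxifene by edgeR. The microglial sum was 147 to 177 CPM in exemestane and 154 to 232 in vehicle. Of 6 endothelial genes, Cldn5, a tight junction protein, was called lower in exemestane (-0.52) and Tek higher in raloxifene (0.33). Of 8 astrocyte genes, Gfap was called lower (-0.34) and Aqp4 higher (0.33) in raloxifene, and 0 were called in exemestane.

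With class in the model none of these neuronal, microglial, endothelial and astrocyte calls held. In class B 5 of the 8 microglial genes were lower and 0 higher, while 2 of the 7 neuronal genes were lower and 2 higher. Over all genes 26.3% were lower and 25.5% higher. Every gene of the deposited counts was seen in at least 8 libraries, so no marker measured here could be at 0 in all. Markers absent from those counts, such as Snap25 and Pecam1, were left out. The part of these lists, and of the fibroblast, mural and choroid plexus lists, in the values of the 9 genes was not tested.

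The genes that varied most like each of the 9 across the 35 libraries were listed with group means removed. Likeness is the Pearson correlation of log2 CPM over the 35 libraries, which share depth and class as sources, and it is given as a description. Enpp6 was most like Ddc (0.64), Fa2h (0.61), Ctu2 (0.58), Cldn11 (0.58) and Litaf (0.58). Bcas1 was most like Zcchc24 (0.80), Mobp (0.79), Apod (0.78), Serpine2 (0.73) and Pkp4 (0.72). Cldn11 and Mobp are structural genes of mature myelin.

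Pdgfra was most like Cp (0.88), Bicc1 (0.85), Ptgds (0.84), Ogn (0.84) and Fmod (0.84), and none of the other 8 genes was among its nearest. Ogn is on the fibroblast list, and Ogn and Fmod encode matrix proteoglycans of connective tissue. These values changed little with class removed (0.84 to 0.88).

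Myrf was among the 5 nearest genes of both Olig1 and Sox10, Olig1 was among those of Myrf, and Mag of the myelin list was near Myrf. The remaining 11 of these 15 places were held by genes on none of the lists. Olig1 was most like Paqr8 (0.95), Pink1 (0.91), Tubb4a (0.90), Fasn (0.90) and Myrf (0.90). Myrf was most like Pacs2 (0.93), Mag (0.93), S1pr5 (0.91), Olig1 (0.90) and Aatk (0.89), and Mag kept 0.88 with class removed. Sox10 was most like Aatk (0.91), Bin1 (0.87), Myrf (0.87), Arhgap23 (0.86) and Phlpp1 (0.86).

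Olig2 was most like Sirt2 (0.76), S1pr5 (0.76), Olig1 (0.74), Paqr8 (0.72) and Atf5 (0.72). Cspg4 was most like Apoe (0.88), Tulp4 (0.87), Borcs6 (0.87), Ndufa8 (0.87) and Mtss2 (0.87), none of them on the lineage lists, and these values dropped to 0.57 to 0.65 with class removed. Gpr17 was most like Plxnb1 (0.85), Rangap1 (0.82), Chst2 (0.82), Tcf3 (0.81) and Ntsr2 (0.81). Over the 15 pairs within the 6 genes that differed by class the median correlation was 0.67, and 0.27 with class removed. Over the 18 pairs between those 6 and Pdgfra, Bcas1 and Enpp6 it was 0.01, and 0.06 with class removed. Those pairs were mixed, from -0.35 to 0.49, and from -0.35 to 0.66 with class removed. With class removed Bcas1 and Myrf had 0.66 and Enpp6 and Myrf 0.53, while Pdgfra and Sox10 had -0.35. The 6 were grouped by their class difference, so their likeness before class was removed carries class in part.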

How the data were processed

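Per the submitters' processing notes, reads were quantified with Salmon and handled with DESeq2, with no version given. The authors deposited expected counts in whole numbers without normalization. Their second table is a normalized signal: dividing the deposited counts by it gives a factor that is not constant over the genes of a library. Aligner settings, genome build and annotation are not given in the sources used here. Each column matched 1 library, 0 columns were unused, and 0 pairs of libraries were identical.

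Counts were tested with edgeR 4.0.16 under R 4.3.3: filterByExpr by group, TMM factors, a robust quasi-likelihood fit of 35 libraries in 7 groups, and its F-test. P-values were adjusted by Benjamini-Hochberg over 14411 genes with a threshold of 0.05, and no p-value was adjusted over a list. The fit was tested on simulated data that held no library class, so that test says nothing of calls where class and group overlap. The 12 tests were the 6 groups against vehicle, the 5 treated groups against sham and any difference among the groups. Drugs were given at different doses and were not tested against each other. Totals of 5.58 to 12.09 M counts (M for mega) limit Enpp6 most, at 10 to 94 counts a library.

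The members and lists were chosen with earlier results of these data known. All 9 members are named. Up to 4 called genes per list and comparison, by smallest p, could be named, as were the 5 genes most like each member with a mean of at least 1 CPM. Susd5, Rn7sl1 and the list members given with values come from those rules. The split of libraries into classes was made with the data in view, from the sign of the first component of the log ratio of the deposited tables over 14326 genes. Of the symbols, 13091 matched RefSeq.

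Alternatives were RLE scaling, no filter on low counts, DESeq2 1.42.0, the authors' factors as offsets, only the groups compared, class as a term, each class alone, and each library left out. The fits with class and a library left out were added after seeing the data.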

Additional observations from a re-analysis of the deposited data

Results flagged for a closer look

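In 7 of the 63 sets of 5 libraries (9 genes in 7 groups), the highest library stood apart from the other 4 by Dixon's test, with a gap above 0.71 of the whole range of the set. Chance alone flags about 1 set in 20. In sham, Bcas1 was at 256.785 CPM in replicate 1, against 139 to 173 in the others. In tamoxifen, Pdgfra was at 118.154 CPM in replicate 2, against 89.7 to 97.3. In raloxifene, Olig1 was at 99.4877 CPM in replicate 2, against 82.96 to 86.1, and Gpr17 at 13.9306 CPM in replicate 3, against 9.71 to 10.7.

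The other 3 values all belong to exemestane replicate 5, the class A library of that group. It held 134.289 CPM of Olig1, against 76.8 to 83.1 in the 4 class B libraries, 16.6169 CPM of Gpr17, against 8.37 to 10.6, and 173.185 CPM of Myrf, against 98.8 to 109.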

How the results depend on the processing

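Counts of the 9 genes called, by comparison, kept within 1.5 times under RLE scaling and without the filter on low counts in all 12 tests. Fitted on the 2 groups alone, they were 1 in estradiol, 5 in raloxifene and 0 in exemestane against vehicle, and 0 in tamoxifen against sham. With the authors' factors they were 1 in raloxifene against vehicle, 0 in tamoxifen against sham and 3 in raloxifene against sham. DESeq2 called 4 in tamoxifen against sham and gave no adjusted p for Enpp6 in estradiol and exemestane against vehicle. In class A alone the counts were 0 in exemestane against vehicle, 0 in tamoxifen against sham and 0 in exemestane against sham, and in class B alone 0 in raloxifene and 1 in exemestane against vehicle. With class as a term they were 0 throughout, also for any difference among groups (0). Leaving out each library gave 0 to 6 in exemestane and 2 to 3 in raloxifene against vehicle, and against sham 4 to 6 in exemestane, 5 in raloxifene and 0 to 5 in tamoxifen. The 6 in exemestane came without replicate 5 of that group, and the 5 in tamoxifen without its replicate 1. For any difference it gave 6 to 7, and 0 elsewhere. The cause was not tested.

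Of the 99 folds of the 9 genes against vehicle and sham, 17 changed sign with class as a term, 8 with the authors' factors and 0 under RLE scaling, without the filter, by DESeq2 or on the 2 groups alone. In class A alone 20 of 81 did and in class B alone 4 of 36. Among folds with an unadjusted p below 0.05 as designed, the sign changed with class as a term for Olig1 in raloxifene against vehicle (0.0447) and Cspg4 in raloxifene against sham (0.00892). In class A alone, with 1 exemestane library, it did so in exemestane against vehicle for Gpr17 (0.13), Myrf (0.13), Olig1 (0.21) and Sox10 (0.0454), and against sham for Myrf (0.0442), Olig1 (0.11) and Sox10 (0.0572). Enpp6 folds in estradiol and exemestane kept their sign under each alternative run.

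Over all genes, exemestane against vehicle had 938 calls as designed, 1972 by DESeq2, 134 with the authors' factors, 110 in class B alone, 0 on the 2 groups alone, in class A alone or with class, and 0 (8 of 10 fits) to 4155 (without exemestane replicate 5) with each library left out, and 2834 without vehicle replicate 4. Raloxifene against vehicle had 3568, against 924 with the authors' factors, 27 in class B alone, 1 with class and 1735 (without vehicle replicate 3) to 4501 (without vehicle replicate 4) with each library left out. Against sham, tamoxifen had 724 (1434 by DESeq2, 336 with the authors' factors, 2 on the 2 groups alone, 0 in class A alone, 1 with class, and 12 to 2832 with each library left out: 12 and 18 without tamoxifen replicates 5 and 3, 59 without sham replicate 1 and 2329 and 2832 without tamoxifen replicates 1 and 2), raloxifene 5377 (2321 with the authors' factors, 0 with class) and exemestane 3983 (1563 with the authors' factors, 0 in class A alone, 2 with class, and 2310 to 2578 without one of its replicates 1 to 4). Estradiol against vehicle had 1, against 31 on the 2 groups alone, 9 in class A alone, 4 with the authors' factors and 43 with class. Any difference among groups had 5329, against 2551 with the authors' factors and 4 with class. Tamoxifen and anastrozole against vehicle had 0, against 92 and 6 in class B alone, and tamoxifen had 21 with the authors' factors, 581 without its replicate 2, 40 without its replicate 1 and 7 without vehicle replicate 4. Class A alone could not be fitted for raloxifene, nor class B alone for sham and estradiol. No paired analysis was possible because the library titles carry no replicate numbers shared between groups.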
